A study of Mus musculus with 6 samples.

Results

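Chaperones are proteins that help other proteins reach and keep their folded shape, and the genes described here encode the major chaperone families and their partners, as measured in the mouse lung at E11.5. They were chosen by name: every probe set whose only gene symbol in the platform annotation begins with Hspa, Hspb, Hspd, Hspe, Hsph, Hsp90, Dnaja, Dnajb or Dnajc, or is Tcp1, Cct6a or another symbol from Cct2 to Cct8. This gave 55 of 8251 genes, read by 78 of 12422 probe sets. RNA from dissected lungs of mouse embryos was measured on 6 Affymetrix arrays, 1 sample on each, all at E11.5 (embryonic days). The branching group was the region of the left and right lungs where branches form, and the non-branching group was the main bronchi of both sides with a piece of trachea, with 3 arrays in each group. The labels give no genotype, strain or treatment and do not say whether embryos were pooled or whether replicates came from separate litters. P-values thus reflect the spread among these 6 samples alone, and that spread may be technical.

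In cells, HSP70 proteins bind stretches of unfolded chain and release them in a cycle driven by ATP. J-domain proteins of the DNAJ families bring clients to HSP70 and start ATP hydrolysis, and HSP110 proteins such as Hsph1 and Hspa4 exchange the nucleotide and reset the cycle. HSP90 acts on clients that are nearly folded, such as kinases and steroid receptors. The chaperonins are closed barrels: Hspd1 with its lid Hspe1 folds proteins inside mitochondria, and the TRiC/CCT complex folds actin and tubulin in the cytosol. Small heat shock proteins hold unfolded proteins without ATP and are abundant in muscle. In heat-stressed cells the factor HSF1 raises many of these genes through heat shock elements in their promoters, and unfolded protein in the endoplasmic reticulum (ER) raises others through ER stress elements.

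Promoters that hold these textbook elements are shown for Hspe1 and Hsph1, which passed the test described below, and for Hspa5 and Hsp90b1, the main HSP70 and HSP90 of the ER. The windows come from RefSeq on build GRCm38.p6 and run from 250 bases before to 50 bases after an annotated gene start. Windows were found for 47 of the 55 genes, and none was found for Cct4, Dnajc2, Dnajc5, Dnajc11, Hsp90aa1, Hspa8, Hspa9 and Hspb2. The heat shock element was searched on both strands as 3 blocks, GAA, TTC and GAA, with NN, any 2 bases, between one block and the next. It was present in windows of 4 genes, Hspd1, Hspe1, Hsph1 and Dnajb6. Of the 61 windows of the 47 genes 6 held it, compared with 0.603% of all 32851 windows. No match was found in the windows of Hspa4, which also had calls, or of the heat-inducible genes Hspa1a, Hspa1b, Dnaja1, Dnajb1 and Hspb1. The ER stress element was searched on both strands as CCAAT and CCACG with any 9 bases between them. It was present in windows of 3 genes, Hspa5, Hsp90b1 and Dnajc3. Of the 61 windows 3 held it, compared with 0.119% of all windows. These matches describe the letters of the windows only. In the sequences printed here the fixed letters of each match are in capitals.
Hspe1, chr1:55087898-55088197, plus strand: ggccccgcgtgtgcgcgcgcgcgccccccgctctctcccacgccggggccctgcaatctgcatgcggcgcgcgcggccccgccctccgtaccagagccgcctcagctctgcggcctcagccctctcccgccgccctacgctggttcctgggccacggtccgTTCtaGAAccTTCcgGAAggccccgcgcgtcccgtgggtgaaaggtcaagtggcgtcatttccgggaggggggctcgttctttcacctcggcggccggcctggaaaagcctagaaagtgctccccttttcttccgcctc
Hsph1, chr5:149636266-149636565, minus strand: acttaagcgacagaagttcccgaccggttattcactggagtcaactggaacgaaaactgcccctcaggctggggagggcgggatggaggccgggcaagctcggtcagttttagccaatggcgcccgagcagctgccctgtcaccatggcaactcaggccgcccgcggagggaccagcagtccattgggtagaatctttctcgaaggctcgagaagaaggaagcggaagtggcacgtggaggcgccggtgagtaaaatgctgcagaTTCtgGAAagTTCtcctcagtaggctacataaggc
Hspa5, chr2:34771840-34772139, plus strand: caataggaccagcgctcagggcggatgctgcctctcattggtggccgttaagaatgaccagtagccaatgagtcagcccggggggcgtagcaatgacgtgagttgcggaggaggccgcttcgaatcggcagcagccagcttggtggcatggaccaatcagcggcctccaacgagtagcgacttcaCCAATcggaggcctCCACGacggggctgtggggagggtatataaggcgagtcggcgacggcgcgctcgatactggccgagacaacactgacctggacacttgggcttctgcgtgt
Hsp90b1, chr10:86705395-86705694, minus strand: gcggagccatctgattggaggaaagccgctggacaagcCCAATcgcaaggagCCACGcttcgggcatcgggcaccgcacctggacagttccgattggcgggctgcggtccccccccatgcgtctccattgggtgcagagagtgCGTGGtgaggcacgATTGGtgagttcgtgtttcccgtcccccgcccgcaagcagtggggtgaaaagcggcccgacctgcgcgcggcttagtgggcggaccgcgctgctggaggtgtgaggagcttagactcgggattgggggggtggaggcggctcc
The Hspe1 window holds 2 overlapping matches, at bases 162 to 179 of the window. Hspd1 lies head to head with Hspe1 on the other strand, and its window shares 285 bases with this one, so that both genes of the mitochondrial chaperonin have the same matches between them. In the Hsph1 window the match lies at bases 266 to 278, after the annotated start. The Hsp90b1 window holds 2 ER stress elements and the Hspa5 window 1.

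The values are the deposited intensities of each probe set, whose medians were close on all arrays (212 to 229). Spots for bacterial and yeast RNA stayed at or below a signal of 147 in 95% of their values, and this served as the background level. Probe sets with the lowest 25% of mean log2 signals were left out of the test, which left 66 of the 78, and the other 12 had means at or below background in both regions. Of the 66, 50 lay above background on all 6 arrays. Because whole regions were measured, fewer cells of a type and less RNA per cell cannot be told apart. The regions differed in their cell markers. Of 9 tested genes of dividing cells all had a positive difference, compared with 49.6% of all probe sets. The summed signal of this list was 23023 to 25388 in branching and 17273 to 17383 in non-branching. At an unadjusted p under 0.05, 7 of the 9 were higher and 0 lower, compared with 6.92% and 7.70% of all probe sets. In limma's test at an adjusted p under 0.05, 2 rose. Of these, Rrm2, which makes deoxynucleotides, rose in log2 signal by 0.99 ± 0.13 (SE, limma adjusted p = 0.00661) and Pcna, the sliding clamp of replication, by 0.87 ± 0.16 (adjusted p = 0.0257). Of 7 red blood cell genes 3 rose (sum 136486 to 151714 in branching, 88186 to 95721 in non-branching). These were the globin genes Hba-a1, Hba-x and Hbb-y, whose signal made up most of the sum. The regions overlapped for the other genes of this list, Hbb-bh1, Alas2, Klf1 and Gata1. Of 6 smooth muscle genes 5 fell (4846 to 5137 against 9817 to 11191). Over all probe sets 0.902% were called higher and 1.13% lower. Of the lung epithelium markers Epcam was at background in both regions, and 0 of 7 passed limma's test. Their sums were 4249 to 4554.5 in branching and 3722 to 4084 in non-branching. At an unadjusted p under 0.05, 1 was higher and 1 lower, compared with 6.92% and 7.70% of all probe sets. Sftpc was higher on all branching arrays (1.99 ± 0.49, limma adjusted p = 0.0807) and Foxa2 lower on all (-0.62 ± 0.15, adjusted p = 0.0751). Of 3 tested liver markers 0 passed, also at an unadjusted p under 0.05, with sums of 494 to 583 in branching and 348 to 502 in non-branching. The part of these cell types in the results below was not tested.

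The comparison asked which chaperone genes differ between the branching lung and the main bronchi. The mitochondrial co-chaperonin Hspe1 and the HSP110 gene Hsph1 were higher in branching, as were 2 of the 5 probe sets of the HSP110 gene Hspa4. The brightest Hspa4 probe set had a difference of 0.01 ± 0.11 and did not pass. The probe sets that passed were higher by 1.6 to 2.2 times, and no chaperone gene passed as lower. Of the 66 tested probe sets, 4 rose (6.06%) and 0 fell in limma's test at an adjusted p under 0.05. Over all 9316 probe sets tested, 2.03% were called in either direction, 0.902% as higher and 1.13% as lower. At an unadjusted p under 0.05, 17 member probe sets were higher and 1 was lower, while 6.92% of all probe sets were higher and 7.70% lower. The 4 calls were not stable. Without branching replicate 1, 1 of the 4 was still called (and Hsp90aa1 in addition), without non-branching replicate 1, 2 were (and a Dnajc8 probe set in addition), and without each of the other 4 arrays 0 were. The count was also 0 without the variance trend or without the filter on dim probe sets.

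The differences of most other members had the same sign. Of the 66 tested probe sets, 46 had a positive difference (69.7%), compared with 49.6% of all probe sets, and the median was 0.18 on the log2 scale, compared with -0.0046. In 18 of the 66 (27.3%) all 3 branching arrays lay above all 3 non-branching arrays, which was so for 9.79% of all probe sets. The reverse order was found in 6 (9.09%), compared with 11.0% of all. With 1 probe set per gene, the brightest over the 6 arrays, 36 of 52 genes were positive, compared with 49.0% of 6798 genes. The positive share was higher among probe sets with strong signal. Of 22 with a mean of 1000 or more, 20 were positive, with a median of 0.38, while of all 1973 probe sets at this level 52.5% were positive. Of the 44 members below 1000, 26 were positive, with a median of 0.05. This level was chosen after the values were seen.

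**Figure D1:**
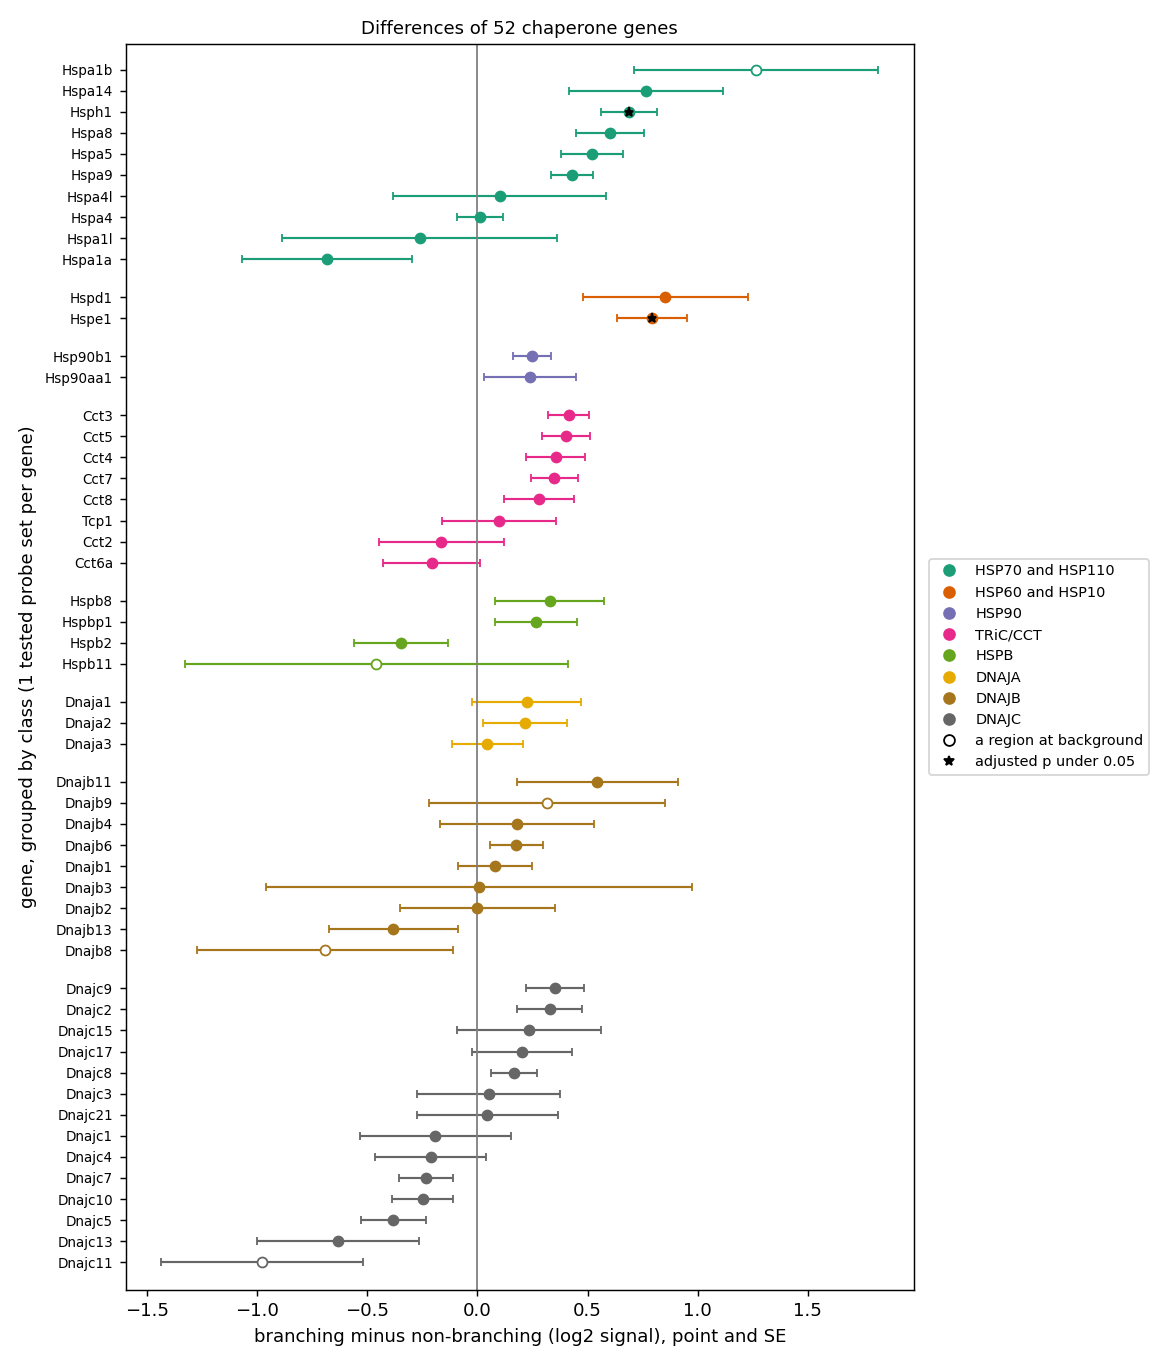
Difference between branching and non-branching in log2 signal (horizontal axis; point with SE, n = 3 arrays per region) for the 52 chaperone genes with a tested probe set, the brightest per gene, grouped by class. Stars mark an adjusted p under 0.05, reached here by Hsph1 and Hspe1, and open points mark genes with a region at background; 36 points lie to the right of 0.

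The mitochondrial chaperonin genes had the highest median of the classes, 0.82 over 2 genes. Hspe1 (Entrez gene 15528), the lid of the barrel, had signals of 2779.8, 3551 and 4004 on branching arrays 1 to 3 and of 2276, 1705 and 1959 on the non-branching arrays. All branching arrays lay above all non-branching ones, with branching replicate 1 the nearest. The log2 signal of Hspe1 rose by 0.79 ± 0.16 (SE, 3 arrays in each region; adjusted p = 0.0369 in limma), a fold of 1.73. It kept the call in 2 of 6 omissions of an array, those of replicate 1 of either region, and the highest adjusted p was 0.141, without branching replicate 3. Hspd1 (Entrez gene 15510), the barrel itself, had 7816, 4971 and 13031 in branching and 7577, 3353 and 3377 in non-branching. Its groups overlapped: branching replicate 3 was the highest, and non-branching replicate 1 exceeded branching replicate 2. The difference of 0.85 ± 0.38 did not pass (adjusted p = 0.337), and a dimmer Hspd1 probe set of another design differed by 0.05 (adjusted p = 0.946). These 2 genes share the promoter region shown above, and only for Hspe1 were the regions apart on every array.

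The HSP110 genes encode the large HSP70 relatives that act as nucleotide exchange factors. Hsph1 (Entrez gene 15505) had 1617, 1647 and 1632 on the branching arrays and 1136, 1015 and 900.3 on the non-branching arrays. The branching values lay within a narrow range, and none of the non-branching values reached it. Hsph1 rose by 0.69 ± 0.13 (limma adjusted p = 0.0277), a fold of 1.61, the smallest adjusted p among the members. Its call held in 1 of 6 omissions, that of non-branching replicate 1, with a highest adjusted p of 0.118 without non-branching replicate 3. Hspa4l, the third member of this family, had means of 191 ± 6.64 in branching and 206 ± 126 (SD) in non-branching and did not pass (adjusted p = 0.953).

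Hspa4 (Entrez gene 15525) was read by 5 probe sets, and they disagreed. The third in brightness had 463, 476 and 533 in branching and 222, 195 and 248 in non-branching. It rose by 1.15 ± 0.23 (limma adjusted p = 0.0383), a fold of 2.22. The second in brightness, of another design, had 2108, 2211 and 2118 in branching and 1445, 1109.9 and 1533 in non-branching and rose by 0.67 ± 0.14 (adjusted p = 0.0447). In both, every branching array lay above every non-branching one. The brightest had 1931, 2270 and 2157 in branching and 2096.5, 2063 and 2138 in non-branching. Its groups overlapped, with a difference of 0.01 ± 0.11 (adjusted p = 0.980). The fourth, a dim one also of another design, had 312, 291 and 242 against 205, 178 and 154.5, without overlap (0.65 ± 0.29, adjusted p = 0.346). The dimmest was below background on 2 of 3 branching arrays and in their mean and had an adjusted p of 0.679. Neither call of Hspa4 held in any of the 6 omissions, with adjusted p from 0.0757 to 0.144 for the second and from 0.0810 to 0.167 for the third. The part of the Hspa4 transcript that each probe set reads was not analysed here.

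**Figure D2:**
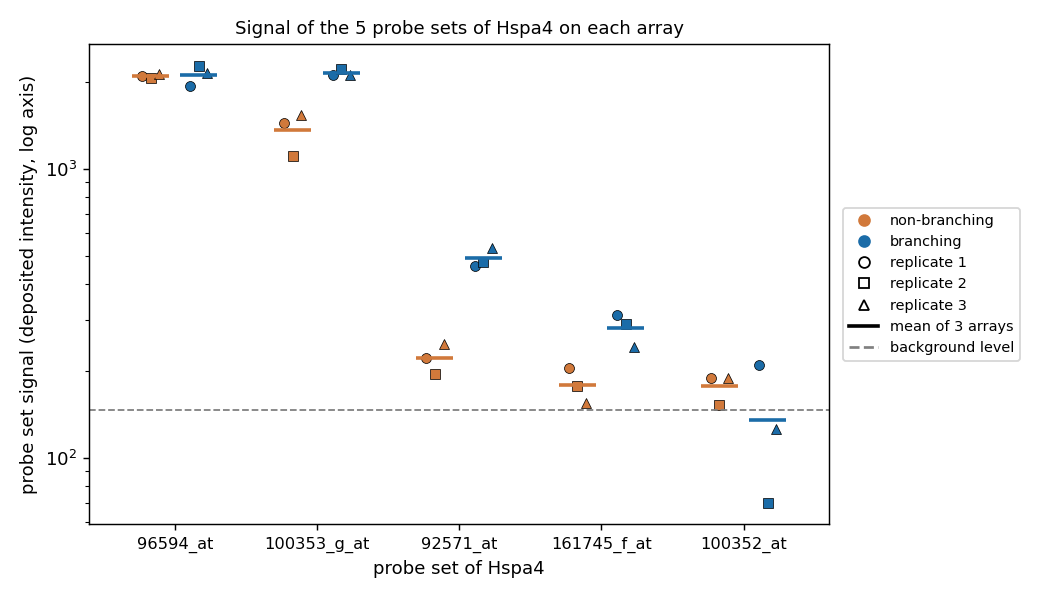
Signal of the 5 probe sets of Hspa4 on each array (vertical log axis, deposited intensity; symbols are replicates, bars are means of 3 arrays, the dashed line is the background level of 147). From the brightest at the left to the dimmest at the right, the regions are apart in the second, the third and the fourth and overlap in the brightest and the dimmest.

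The HSP70 proteins of the cytosol, the mitochondria and the ER showed differences of similar size that did not pass. Hspa8 (Entrez gene 15481), the constitutive HSP70 of the cytosol, had 6799, 8570.3 and 8784.5 in branching and 6348, 4246 and 5447 in non-branching. The groups did not overlap, with branching replicate 1 and non-branching replicate 1 close together. The difference was 0.60 ± 0.15 (limma adjusted p = 0.0946). Hspa9 (Entrez gene 15526), the mitochondrial HSP70 that pulls proteins across the inner membrane, had 3106, 2910 and 2801 in branching and 2120.5, 2163.5 and 2258 in non-branching. Its arrays lay close together within each region, and the difference of 0.43 ± 0.10 had an adjusted p of 0.0619. Hspa5 (Entrez gene 14828), the HSP70 of the ER also called BiP, had 3751, 4589.7 and 4881 in branching and 3589, 3006.5 and 2644 in non-branching. The regions were apart, but branching replicate 1 and non-branching replicate 1 differed little, and the difference of 0.52 ± 0.14 did not pass (adjusted p = 0.111). Hspa14, a ribosome-associated HSP70, had 511, 293 and 406 in branching and 321.5, 149 and 257 in non-branching, with groups that overlapped (difference 0.77 ± 0.35, adjusted p = 0.355).

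The stress-inducible HSP70 genes Hspa1a and Hspa1b are nearly identical in sequence, so their probe sets may read each other's RNA, and their values are uncertain. The Hspa1a probe set had 217, 104 and 247 in branching and 235, 332 and 296 in non-branching (adjusted p = 0.461). The Hspa1b probe set had 154, 181 and 158 in branching and 103, 31.9 and 96.7 in non-branching, all of the latter below background (adjusted p = 0.337). Their means were thus ordered in opposite ways. Hspa1l, a relative expressed in the testis, had 71.8 to 314 in branching and 98.5 to 324 in non-branching, and Hspa2, which acts in male germ cells, was at background in both regions and was not tested. Over the 10 tested genes of the HSP70 and HSP110 class 8 were positive, with a median of 0.47, and all 3 branching arrays were above all 3 non-branching arrays in 5, which was so for 10.2% of all 6798 genes.

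Of the HSP90 genes, Hsp90aa1 and Hsp90b1 were tested, and Hsp90ab1 was not analysed here. Hsp90b1 (Entrez gene 22027), the HSP90 of the ER also called GRP94, had 10278, 8868 and 10262 in branching and 8378, 8224 and 8129 in non-branching. The groups did not overlap, and the difference was small, 0.25 ± 0.09 (limma adjusted p = 0.226). Hsp90aa1 (Entrez gene 15519), the inducible HSP90 of the cytosol, had 6039, 10265 and 11757 in branching and 7009.8, 7921 and 8001 in non-branching. Branching replicate 1 was the lowest of the 6 arrays and the other 2 branching arrays were the highest, so that the difference of 0.24 ± 0.21 did not pass (adjusted p = 0.674). Without branching replicate 1 it was 0.53 (adjusted p = 0.0457), without branching replicate 3 it was 0.045 (adjusted p = 0.958), and in the other omissions it ran from 0.14 to 0.27, where it did not pass.

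**Figure D3:**
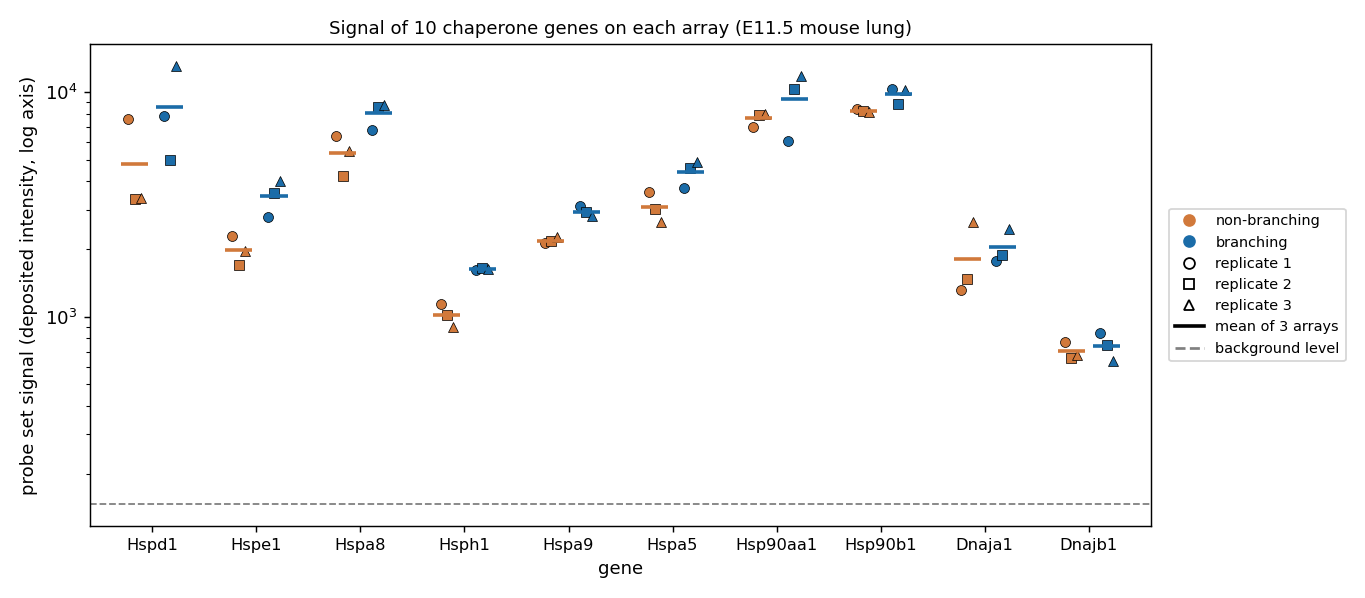
Signal of 10 chaperone genes on each array (vertical log axis, deposited intensity; symbols are replicates, bars are means of 3 arrays, the dashed line is the background level of 147). The regions are apart for Hspe1, Hspa8, Hsph1, Hspa9, Hspa5 and Hsp90b1 and overlap for Hspd1, Hsp90aa1, Dnaja1 and Dnajb1.

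The TRiC/CCT chaperonin is a barrel of 8 different subunits, all of which were read. With 1 probe set per gene 6 subunits were positive and 2 negative, with a median of 0.31, and 0 passed in limma's test; at an unadjusted p under 0.05, 5 of the 11 probe sets tested were higher and 0 lower, compared with the 6.92% and 7.70% of all probe sets given above. Cct3 (Entrez gene 12462) had 4434, 4696 and 4428 in branching and 3152, 3471 and 3567 in non-branching on its brightest probe set, of another design. The regions were clearly apart, and the difference of 0.41 ± 0.09 had an adjusted p of 0.0578. A second Cct3 probe set, a standard one, had 2199.5, 2222 and 2467 against 1713.5, 1013 and 1517.5, again without overlap (difference 0.73 ± 0.18, adjusted p = 0.0846). The groups of the third, also of another design, overlapped (0.15, adjusted p = 0.852). Cct5 (Entrez gene 12465) had 5070.1, 5146 and 5766 in branching and 3563, 4029 and 4532 in non-branching, a difference of 0.40 ± 0.11 without overlap (adjusted p = 0.117). Its dimmer probe set differed by -0.33 ± 0.25 (adjusted p = 0.605).

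Cct7 (Entrez gene 12468) had 3524, 3296 and 4049 in branching and 2747, 2791.5 and 2967 in non-branching and differed by 0.35 ± 0.11 (adjusted p = 0.151). Cct4 (Entrez gene 12464) had 2066, 2599 and 2732 against 1741.5, 1939 and 2073, where only non-branching replicate 3 exceeded a branching array (difference 0.36 ± 0.13, adjusted p = 0.255). Cct8 had 811, 1023.5 and 1131 against 804, 779.6 and 839, with branching replicate 1 within the range of the non-branching arrays (difference 0.28 ± 0.16, adjusted p = 0.472). The other subunits showed no such order. Tcp1, which encodes the alpha subunit, had 670.4, 639.5 and 593 in branching and 729, 384 and 744 in non-branching (adjusted p = 0.911). Cct2 had 248, 397 and 499 in branching and 392.5, 379 and 464 in non-branching. Cct6a had 815.5, 1512.5 and 1150.0 in branching and 1088, 1369.6 and 1464 in non-branching, on a probe set of another design. The differences of Cct2 and Cct6a, -0.16 ± 0.28 and -0.21 ± 0.22, were within 1 standard error of 0, and in both genes branching replicate 1 was the lowest array. The paralog Cct6b, which the rule leaves out, differed by 0.08 (adjusted p = 0.936). Because a probe set has its own response, the levels of subunits were not compared with each other.

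**Figure D4:**
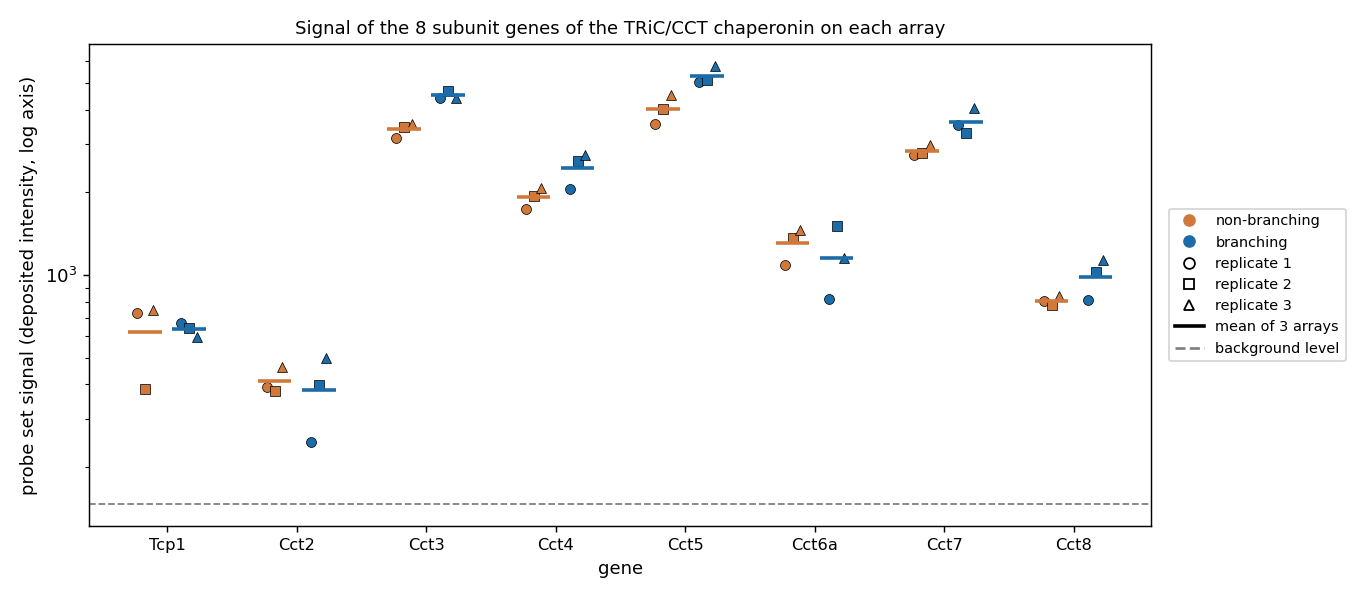
Signal of the 8 subunit genes of the TRiC/CCT chaperonin on each array (vertical log axis, deposited intensity; symbols are replicates, bars are means of 3 arrays, the dashed line is the background level of 147). The regions are apart for Cct3, Cct5 and Cct7 and overlap for the other 5 subunits.

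The J-domain genes split between both directions. Of 26 tested genes of the 3 DNAJ families 16 were positive and 10 negative, with a median of 0.05, and 0 of their 32 tested probe sets passed in limma's test, with 2 higher and 1 lower at an unadjusted p under 0.05, close to the shares of all probe sets given above. The DNAJA genes, the closest partners of HSP70, were all within about 1 standard error of 0 or little more. Dnaja1 had 1769, 1884 and 2450.5 in branching and 1320.5, 1467 and 2649 in non-branching, with replicate 3 the highest array in either region (difference 0.22 ± 0.25, adjusted p = 0.749). It became 0.031 when non-branching replicate 1 was left out and 0.53 when replicate 3 of that region was, and it did not pass in any omission. Dnaja2 had 683, 696 and 672.5 against 631, 697 and 464, a difference of 0.22 ± 0.19 (adjusted p = 0.673), and without non-branching replicate 3 it was 0.04. Dnaja3, a mitochondrial J protein, had means of 718 ± 99.0 and 692 ± 32.4 (SD).

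Among 9 tested DNAJB genes 6 were positive, and the median was 0.08, which became -0.017 when branching replicate 1 was left out and 0.23 when replicate 1 of the non-branching region was. Dnajb1, the heat-inducible partner of HSP70, had 847, 749 and 637 in branching and 771, 657 and 673 in non-branching, with overlapping groups (0.08 ± 0.17, adjusted p = 0.876). Dnajb11, a J protein of the ER, had 196, 218 and 265 in branching and 160.5, 212 and 108 in non-branching, with a small overlap (difference 0.54 ± 0.37, adjusted p = 0.559). Dnajb6, which suppresses protein aggregation, had 1 probe set above the non-branching arrays on all branching arrays (0.18, adjusted p = 0.563) and a dimmer one below them on all (-0.29, adjusted p = 0.472). Dnajb8, known from the testis, had 114, 66.6 and 93.5 in branching, all below background, and 64.1, 249.5 and 188 in non-branching (adjusted p = 0.654). Dnajb13, a gene of motile cilia and sperm tails, differed by -0.38 ± 0.29 (adjusted p = 0.616). Dnajb2, Dnajb3, Dnajb4 and Dnajb9 also overlapped between the regions on their brightest probe set, a dimmer Dnajb3 probe set at background was lower on all branching arrays (109, 62.6 and 83.1 against 121, 128.5 and 121), and Dnajb5 was at background in both and was not tested.

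The DNAJC genes, a varied family with special roles, split evenly, with 7 positive and 7 negative among 14 tested genes and a median of -0.07. Dnajc9, which handles histones for chromatin assembly, had 1582, 1858 and 2049 in branching and 1412.5, 1335 and 1534 in non-branching. The groups did not overlap, and the difference of 0.35 ± 0.13 did not pass (limma adjusted p = 0.251). Dnajc2, which binds ribosomes beside the exit of the new chain, differed by 0.33 ± 0.15 (adjusted p = 0.348), without overlap, on its brightest probe set, of another design, and by 0.23 ± 0.17 (adjusted p = 0.611), with overlap, on its standard one. On the same arrays all 9 tested genes of dividing cells had a positive difference and 2 rose, as given above. Their part was not tested. Dnajc3, an ER protein that inhibits the kinase PERK, had 264, 222 and 258 in branching and 153, 142 and 149 in non-branching on 1 probe set (0.74 ± 0.30, adjusted p = 0.299) without overlap. Its brightest probe set, of another design, had 426, 232.5 and 283.5 against 295, 390 and 220, a difference of 0.05 ± 0.33 (adjusted p = 0.967).

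In 4 of 14 DNAJC genes all branching arrays lay below all non-branching arrays, which was so for 11.7% of all genes. Dnajc5, the cysteine string protein of synaptic vesicles, had 635, 684 and 666.5 in branching and 829.5, 949 and 813 in non-branching (-0.38 ± 0.15, adjusted p = 0.272). On the same arrays the summed signal of 7 neuronal and neural crest markers was 4295 to 4661 in branching and 5278 to 5814 in non-branching, where Nefl and Nefm were at background. Of these markers 3 were positive, with Nefl and Nefm among them, and 4 negative. The neural crest factor Sox10 fell. At an unadjusted p under 0.05, 0 were higher and 3 lower, compared with 6.92% and 7.70% of all probe sets. Besides Sox10 these were Ncam1 (-0.63 ± 0.16, limma adjusted p = 0.0910) and Gap43 (-0.72 ± 0.28, adjusted p = 0.277), both lower on all branching arrays. The neuronal tubulin Tubb3 was higher on all of them (2115, 1855 and 1919 against 1647, 1806 and 1811). The part of these markers in the Dnajc5 values was not tested. Dnajc10, an ER reductase that breaks disulfide bonds, had 771, 722 and 767 against 863, 885 and 938 (-0.25 ± 0.14, adjusted p = 0.449). Dnajc7, which moves clients between HSP70 and HSP90, had means of 1361 ± 103 and 1602 ± 141 (-0.23 ± 0.12, adjusted p = 0.435). Dnajc11, a protein of the mitochondrial inner membrane organising complex, was below background on all branching arrays, with 112, 92.6 and 94.9, against 352, 135 and 158.5 (adjusted p = 0.371). Dnajc13, an endosomal J protein, had 116.5, 248 and 149 in branching and 258, 291 and 214 in non-branching, with overlap (-0.63 ± 0.37, adjusted p = 0.477). The other DNAJC genes, Dnajc1, Dnajc4, Dnajc8, Dnajc15, Dnajc17 and Dnajc21, overlapped between the regions on their brightest probe set.

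The small heat shock protein genes were dim or did not pass in limma's test. Hspb1, the widely expressed HSP27 gene, was at background in the mean of both regions, with 11.3, 171 and 127 in branching and 98.5, 64.3 and 18.2 in non-branching, and was not tested. Hspb2, a small heat shock protein of striated muscle, had 484, 379 and 423 in branching and 572, 437 and 639 in non-branching on a probe set of another design (-0.35 ± 0.22, adjusted p = 0.518), and its standard probe set was at background. The muscle genes fell on the same arrays: 5 of 6 smooth muscle and 2 of 9 tested cardiac and skeletal muscle genes, the latter with sums of 3366.5 to 3928 in branching and 5249 to 5999.9 in non-branching and with Acta1, Myh6, Myl2, Myl3 and Tnnc1 at background; their part in the Hspb2 values was not tested. Hspb8, a partner of Bag3 in clearing damaged proteins, had 461, 510.1 and 535 against 333, 339 and 563 (0.33 ± 0.25, adjusted p = 0.607). Hspb11 and Hspbp1 fall under the rule by their letters only. Hspb11 encodes a protein of ciliary transport and was at background in the mean of both regions. Hspbp1, an exchange factor for HSP70, differed by 0.26 ± 0.19 (adjusted p = 0.579) on a probe set of another design.

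Sorted by compartment, 5 of 7 tested ER genes were positive with a median of 0.25, 5 of 6 mitochondrial genes with 0.33 and 19 of 26 genes of the cytosol and nucleus with 0.18. Genes outside these lists were positive in 7 of 13 with a median of 0.05. The median over all 6798 genes was -0.0083. Single arrays also differed. Over the 52 genes, branching arrays 1 to 3 held the highest of the 6 signals in 11, 10 and 12 genes and the lowest in 11, 7 and 3, while the non-branching arrays held the highest in 2, 8 and 9 and the lowest in 10, 12 and 9. Branching replicate 1 was thus at either end more evenly than the other branching arrays.

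The partners of the chaperones did not pass. Of 21 tested co-chaperone and prefoldin genes outside the rule (without Hspbp1) 16 were positive, with a median of 0.13, and 0 passed in limma's test, with 3 higher and 0 lower at an unadjusted p under 0.05. For this list and the next, the shares over all probe sets at this threshold were 6.92% higher and 7.70% lower. Of all 6798 genes 49.0% were positive. Fkbp4, a peptidyl-prolyl isomerase that works with HSP90, had 7197, 5693 and 6569 in branching and 4333, 4595 and 5131 in non-branching (0.47 ± 0.11, adjusted p = 0.0721, on a probe set of another design). Ppid, another such isomerase, differed by 0.59 ± 0.16 (adjusted p = 0.117). In both genes every branching array was above every non-branching one. Of 16 tested genes of ER folding and the unfolded protein response 12 were positive, with a median of 0.19, and 0 passed in limma's test, with 4 higher and 0 lower at an unadjusted p under 0.05. Among them were the disulfide isomerase genes Pdia3 (0.60 ± 0.17, adjusted p = 0.129) and Pdia6 (0.36 ± 0.12, adjusted p = 0.197). Of 5 tested genes of collagen folding 1 was positive, and the collagen chaperone gene Serpinh1 differed by 0.12 ± 0.14 (adjusted p = 0.770) and P4ha2, a prolyl hydroxylase gene, by -0.18 ± 0.20 (adjusted p = 0.744).

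The genes of the heat shock response were mixed. Of 11 tested heat-inducible genes 9 were positive, compared with 49.0% of all 6798 genes, and the median was 0.24. The 2 that rose were Hspe1 and Hsph1, while 0.902% of all probe sets were called higher. At an unadjusted p under 0.05, 5 of the 11 were higher and 0 lower, compared with 6.92% and 7.70% of all probe sets. Of the 12 listed genes 10 are members described above. Bag3, which HSF1 induces, had 395, 292.5 and 407 in branching and 418, 629.8 and 526 in non-branching, with all branching arrays lower (-0.52 ± 0.24, adjusted p = 0.360). Hsf2 and Hsf4 were at background in both regions, and Hsf1 was not analysed here. Hsbp1, an inhibitor of HSF1, was lower on all branching arrays (-0.71 ± 0.21, adjusted p = 0.145). Of 13 tested immediate early genes, which respond to handling and stress, 4 were positive and 0 passed in limma's test. At an unadjusted p under 0.05, 0 were higher and 2 lower, compared with 6.92% and 7.70% of all probe sets. These genes had a median of -0.33 and sums of 17058 to 19536 in branching and 20878 to 23146 in non-branching, where Fos and Egr2 were at background. Most of this sum was the signal of Jund, and without Jund the sums were 4610.3 to 5465 in branching and 5104 to 5722 in non-branching. The 2 of them with the smallest p were Jund (-0.33 ± 0.09, adjusted p = 0.128) and Jun (-0.62 ± 0.25, adjusted p = 0.297). Their part in the chaperone values was not tested.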

How the data were processed

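The authors' deposited table holds 1 intensity per probe set and array on a linear scale. The steps behind these intensity values are not given in the sources used here, and no detection calls were used. Gene names came from the platform annotation of the array. Of 12488 probe sets, 66 controls were left out. Values under 16 were set to 16 (5.01% to 8.26% of an array) and log2 was taken. All 9316 probe sets left after the filter were compared with limma 3.58.1 under R 4.3.3 (2 groups, variance trend, two-sided, Benjamini-Hochberg over all), and only the chaperone genes and the other genes the text names are printed. Differences are branching minus non-branching, and those of dim genes are imprecise and may understate the change. The number of arrays limits the precision. Probe sets whose names end in more than _at are called of another design. The members, lists, tests and alternatives were chosen with earlier results of these data known. Values per array are given for called members, for the 2 largest differences of a class and for landmark genes. Of other lists up to 4 called genes or the 2 with the smallest p were named, but of the muscle and liver lists no such gene was. Further members, and Bag3, Tubb3, Ncam1 and Gap43, were named after their values were seen. Deviations of arrays with the same replicate number correlated at -0.015 to 0.013, and those with different numbers at -0.049 to 0.052. These values show no pairing, and the arrays were compared as unpaired. With 3 arrays per region they cannot tell whether samples of the same number came from the same embryos. Alternatives were the replicate block, 2 normalizations, 2 other filters, 2 other treatments of low values, 2 variance models, omission of each array, a threshold of 0.10 and the mean of a gene's probe sets.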

Additional observations from a re-analysis of the deposited data

How the results depend on the processing

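The count of 4 member probe sets that rose became 0 with the replicate number as a block, 0 without a filter on dim probe sets and 0 without a variance trend, and 8 at an adjusted p under 0.10. With 1 array left out it ran from 0 to 3. In the same 3 settings the calls over all probe sets went from 84 higher and 105 lower to 44 and 70, 38 and 62, and 5 and 17; why the member calls were lost was not tested. No setting called a member lower. Of 460 recomputed differences of 31 named probe sets 9 changed sign, all with 1 array left out and none of them called. With 1 array left out the difference ran from -0.39 to 0.12 for Cct2, from -0.42 to 0.024 for Cct6a, from -0.017 to 0.19 for Dnajb1, from -0.19 to 0.26 for Dnajc3, from -0.040 to 0.076 for the brightest probe set of Hspa4 and from -0.22 to 0.26 for Tcp1. The class median ran from 0.044 to 0.22 for DNAJA from -0.017 to 0.23 for DNAJB (-0.00014 with the mean of a gene's probe sets) and from -0.17 to 0.029 for DNAJC, which was 0.052 after leaving out the dimmer 50%, and the median of all members from 0.16 to 0.24. The medians of the HSP70 and HSP110, HSP60 and HSP10, HSP90 and TRiC/CCT classes were positive in every setting. Signals near background limit the small heat shock protein and several DNAJ genes.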
